A study of Mus musculus with 27 samples.

Results

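The xenobiotic cytochrome P450 genes were followed in whole livers of BALB/c mice over a reproductive cycle. They were taken by symbol as the genes of the mouse families Cyp1, Cyp2 and Cyp3 whose subfamily has a single letter, leaving out pseudogenes and Cyp2a4. They numbered 59 of the 51826 gene identifiers in the deposited tables. By subfamily there were 15 Cyp2c, 9 Cyp3a, 8 Cyp2d, 8 Cyp2j, 5 Cyp2b, 3 Cyp2a and 2 Cyp1a genes, and 1 each of Cyp1b, Cyp2e, Cyp2f, Cyp2g, Cyp2r, Cyp2s, Cyp2t, Cyp2u and Cyp2w.

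Cytochrome P450 enzymes of these families are heme proteins of the endoplasmic reticulum that oxidise drugs, toxins, steroids and fatty acids, with electrons supplied by P450 reductase and cytochrome b5. Most of their hepatic expression lies in hepatocytes, and many are zonated, with Cyp2e1 and Cyp1a2 best known from cells around the central vein and Cyp2f2 from cells around the portal vein. Their transcription is known to respond to chemicals through the aryl hydrocarbon receptor (AHR), the constitutive androstane receptor (CAR) and the pregnane X receptor (PXR), and to the sex-dependent pattern of growth hormone secretion, which sets female-biased and male-biased members apart in mouse liver.

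Bulk RNA sequencing covered 27 animals at 7 stages, with 1 library each. The stages were nulliparous (NUL, 4 mice), lactation day 10 (LAC, 3), post-wean days 2, 4, 6 and 8, called involution days in the labels (ID2, 3 mice; ID4, 4; ID6, 6; ID8, 3), and 4 weeks after weaning, called regressed (REG, 4). All animals were wildtype. Breeding took place at 10 to 12 weeks of age, litters were made even, and weaning fell between days 10 and 14 of lactation. The length of nursing could thus have differed between the weaned animals. The hour of killing is not given in the sources used here. Titles number the animals, so each library was taken as 1 animal. All 3 ID8, 2 of 3 ID2 and 2 of 4 ID4 animals carry numbers under 200 and all other animals numbers from 200 up; what this marks is not given in the sources used here, and for ID8 the stage and the number cannot be told apart. Hepatocyte markers were abundant in every library, and library totals ran from 41120650 to 75664540 estimated counts. Pancreas acinar markers (7 genes, 5 of them at 0 in every NUL animal) summed to 1221 CPM, counts scaled to library size, in ID2_31, 88.5 in ID4_15 and 35.9 in ID8_98b, against at most 21.4 in NUL. The library ID2_39 had the highest score of clock genes (1.07 against -3.46 to -1.96 in NUL, the mean log2 level of clock genes such as Dbp and Per2 minus that of Arntl and its partners). The other ID2 animals also lay above every NUL animal, with -0.859 in ID2_31 and -1.07 in ID2_224. Between ID2 and NUL the stage and the clock score therefore cannot be told apart.

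Of the 59 genes, 46 passed the filter on low counts and were tested. The other 13 were nearly silent in these livers: 7 had no count in any library, among them Cyp2w1, Cyp2t4 and Cyp2j7, which allows at most 3 counts, or 0.0776 CPM in the smallest library, and the highest count of the remaining 6 was 11. On the length-scaled TPM scale, which allows genes to be compared with each other, Cyp2e1 was the highest of the family in NUL at 3240 ± 687 TPM (SD, n = 4), followed by Cyp2c29 at 1301 ± 364 and Cyp2c40 at 1072 ± 181. Together the 59 genes took 1.45 ± 0.176% of all TPM in NUL, 1.37 ± 0.0632% in LAC (n = 3) and 1.80 ± 0.0897% in ID4 (n = 4).

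A difference among the 7 stages was found for 30 of the 46 tested genes, where 27% of all 16428 genes were called at an adjusted p under 0.05 (edgeR quasi-likelihood F test, Benjamini-Hochberg over all genes, which holds for every adjusted p below). In LAC against NUL, 8 rose and 4 fell, against 5.19% and 6.00% of all genes. Of these 12, 10 had no overlap between the animals of both groups, where 10.3% of all genes were called without overlap. With or without a call, 15 of the 46 had no overlap, and 21.4% of all genes. Without LAC_213 7 were called. In ID2 against NUL, 4 rose and 4 fell (all genes, 2.32% and 0.919%), and in ID4 against NUL 8 rose and 3 fell (2.64% and 1.61%). The 8 calls of ID2 against NUL became 3 without ID2_39, 4 without NUL_226, and 5 without NUL_227 or ID2_224. No P450 gene was called in ID6, ID8 or REG against NUL by edgeR, where 1.08%, 0.499% and 0.0852% of all genes were. At an unadjusted p under 0.05 there were 9, 14 and 4 of the 46 (all genes, 11.9%, 12.8% and 7.17%), and DESeq2 called 3, 4 and 1 (all genes, 2.74%, 1.42% and 0.450%).

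Between successive stages, ID2 against LAC gave 6 genes that rose and 9 that fell (all genes, 8.48% and 7.64%), 9 in all without ID2_224. ID4 against ID2 gave 3 and 1 (0.645% and 0.840%), 2 in all without ID2_31 or ID2_39. ID6 against ID4 gave 2 that rose and 11 that fell (3.89% and 4.64%), and ID8 against ID6 gave 1 of each (2.37% and 1.75%). Those 2 became 4 without ID6_201 and 1 without ID6_209, ID6_232 or any 1 of the ID8 animals. The median log2 fold change of the 46 was 0.27 in ID4 against NUL and -0.26 in ID6 against ID4, beside -0.02 and 0.01 over all genes. In lactation it was 0.04, beside -0.01. The comparisons with NUL share the same 4 animals, and neighbouring comparisons share a stage.

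**Figure D1:**
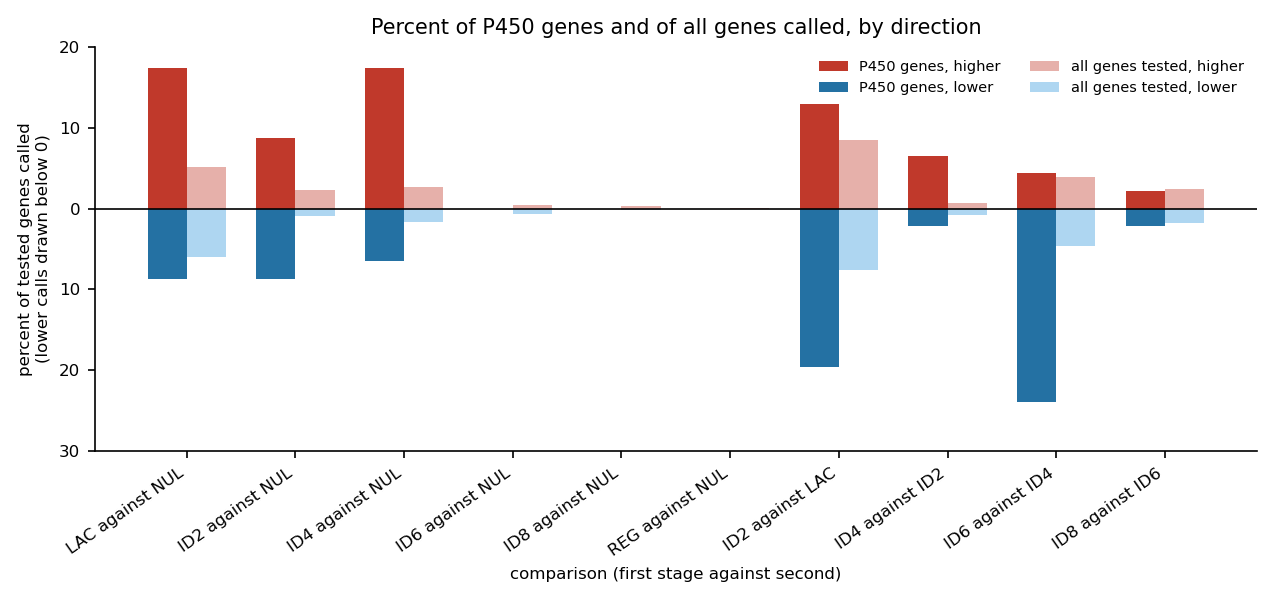
Percent of the 46 tested P450 genes and of all 16428 tested genes that were called in each of 10 comparisons, with genes higher in the first-named stage above the zero line and genes lower in it below. The bars for P450 genes reach 17.4% upward in LAC and ID4 against NUL and 23.9% downward in ID6 against ID4, and are absent in ID6, ID8 and REG against NUL.

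**Figure D2:**
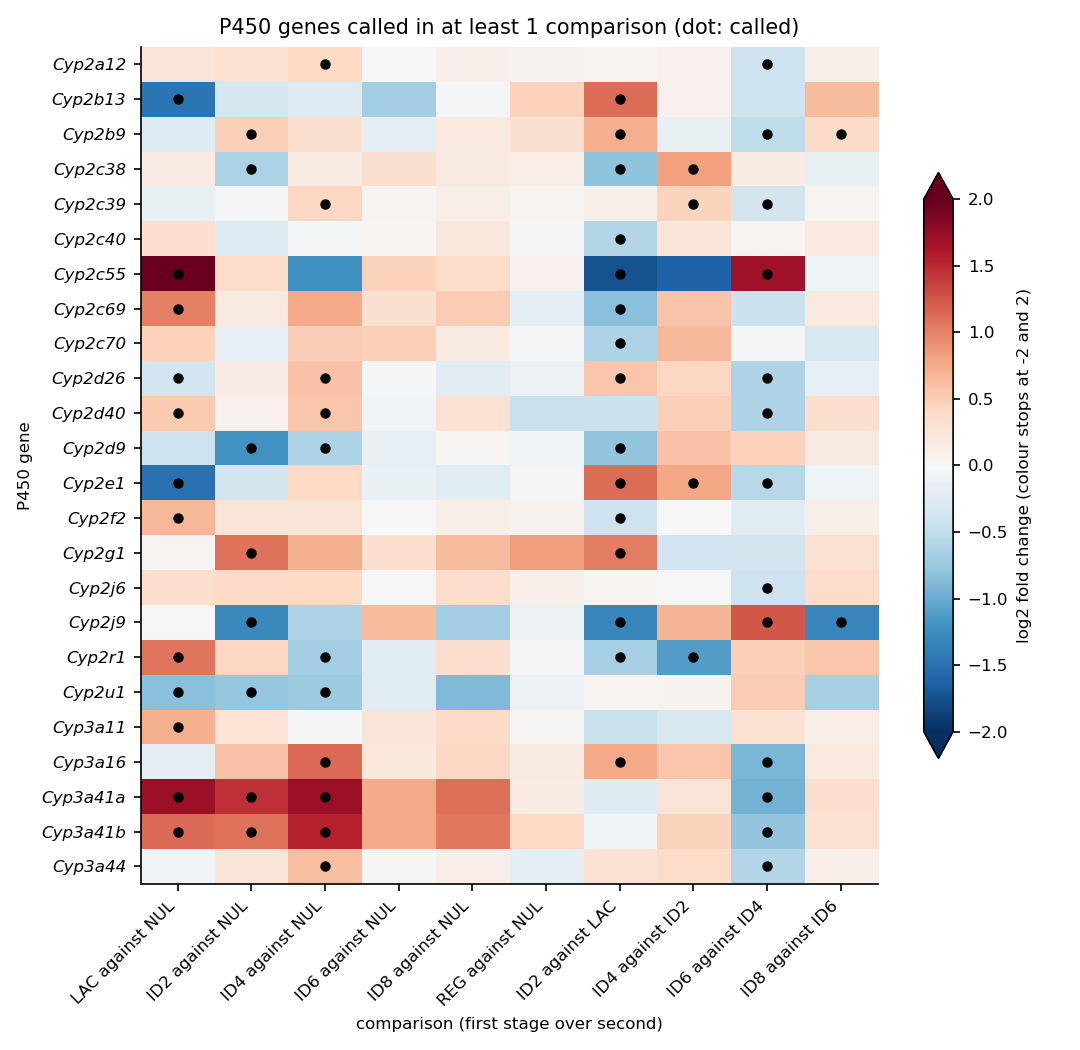
Log2 fold change (colour) of the 24 P450 genes called in at least 1 of 10 comparisons, with a dot where the gene was called. Cyp3a41a and Cyp3a41b are dotted in the LAC, ID2 and ID4 columns against NUL, whereas Cyp2e1 and Cyp2b13 are dotted as lower in LAC alone among the comparisons with NUL.

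The summed TPM of a subfamily shows where the bulk of the message lay. Cyp2c genes took 39.2% of the P450 TPM in NUL, Cyp2e1 22.2% and Cyp3a genes 11.8%. In LAC those shares were 47.0%, 7.87% and 18.5%. The Cyp3a sum went from 1705 ± 148 TPM (SD, n = 4) in NUL to 2541 ± 314 in LAC (n = 3), 2578 ± 133 in ID2 (n = 3), 2920 ± 143 in ID4 (n = 4), 2207 ± 169 in ID6 (n = 6), 2259 ± 53.2 in ID8 (n = 3) and 1757 ± 162 in REG (n = 4). No LAC, ID2, ID4, ID6 or ID8 animal was as low as the highest NUL animal (1905 TPM), while REG, at 1616 to 1964 TPM, overlapped NUL. The Cyp2d sum was lowest in LAC, at 1129 ± 28.9 TPM, and highest in ID4, at 1773 ± 49.3, with 1417 ± 77.8 in NUL. These sums are descriptions without a test.

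**Figure D3:**
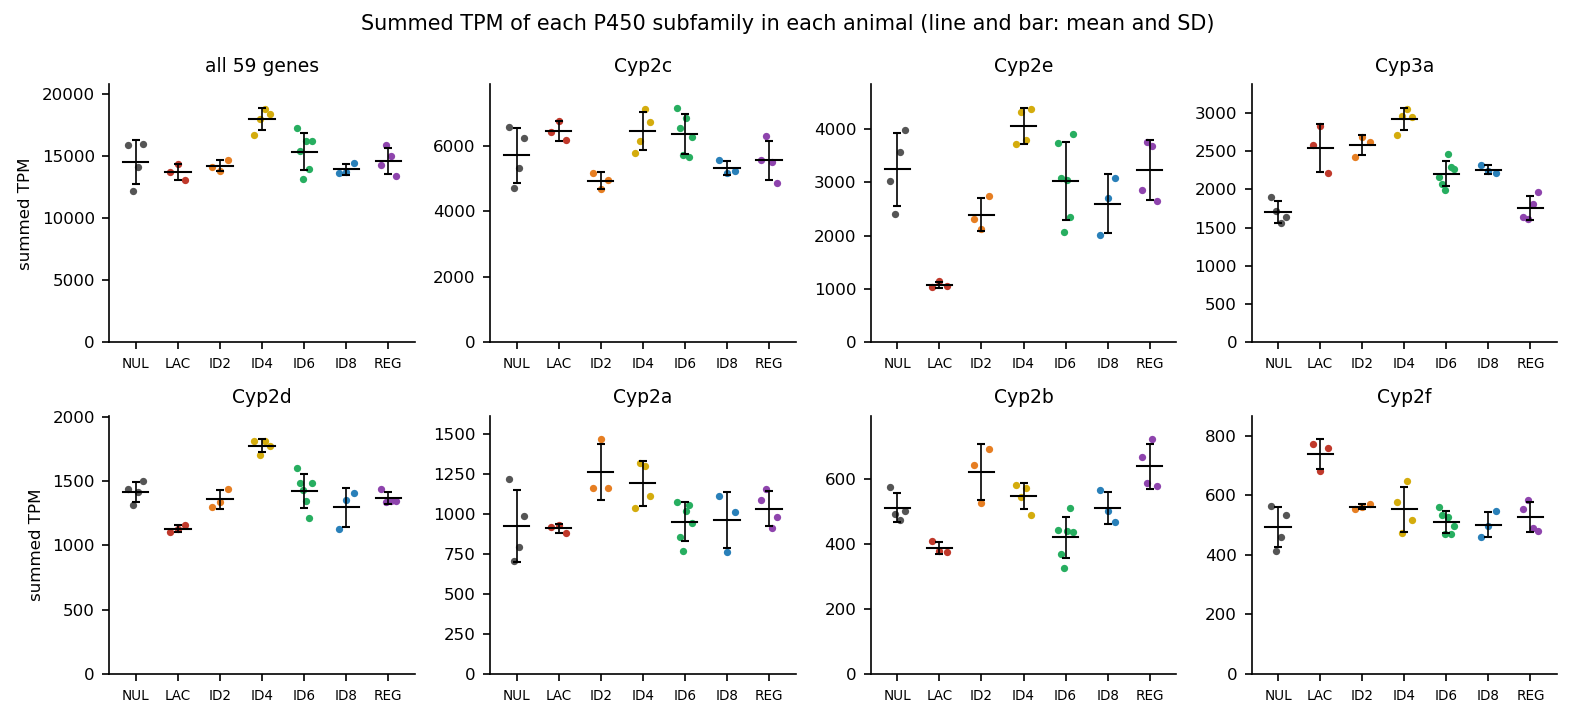
Summed TPM of all 59 P450 genes and of 7 subfamilies in each animal (points) by stage, with the mean (line) and SD (bar). The lactating animals lie below all others for Cyp2e and above all others for Cyp2f, the ID4 animals lie above all others for Cyp2d, and the mean of the sum of all genes is highest in ID4.

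Cyp2e1 (ENSMUSG00000025479, chr7:140763739-140774987, plus strand), which oxidises ethanol, acetone and other small molecules, had the largest fall in lactation among the called genes. Its level was 3983, 3079, 4619 and 5054 CPM (after TMM scaling) in the NUL animals and 1460, 1617 and 1408 in the LAC animals. All 3 lactating livers lay below every NUL liver. The fold change was a fall by 1.49 ± 0.20 (SE) on the log2 scale, or 2.80-fold (edgeR adjusted p = 2.57e-05), and the call was kept under every alternative tried. After weaning the level was 2944, 2906 and 3875 CPM in ID2 and 5049, 5769, 5137 and 6187 in ID4. It rose from LAC to ID2 by 1.12 ± 0.21 on the log2 scale (edgeR adjusted p = 0.000726) and again from ID2 to ID4 by 0.77 ± 0.20 (0.0406). That second call was lost without any 1 of 6 of the 7 animals (largest adjusted p 0.211), without the filter (0.0764), and with the title number (0.0553) or the clock score (0.212) as a covariate. ID4 against NUL was not called (4184 ± 858 CPM in NUL, 5535 ± 540 in ID4; adjusted p = 0.216). ID6 (2705 to 5076 CPM, median 3780), ID8 (2667, 3707 and 4328) and REG (3756, 4553, 4606 and 3490) all overlapped NUL. The fall from ID4 to ID6 was called (log2 fold change -0.55 ± 0.16, adjusted p = 0.0326), although the groups overlapped.

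The 250 bases before the RefSeq start of Cyp2e1 (chr7:140763569-140763818, plus strand) are printed. They were chosen because this gene alone supplied about as much message as the Cyp3a and Cyp2d genes do together in NUL. Capitals mark the letters TATAAA, 31 bases before the RefSeq start. That start lies downstream of the GENCODE start given above, so the end of the window, with these letters, lies inside the gene as given. This sequence and those further on come from RefSeq on GRCm38.p6, the C57BL/6J reference, and BALB/c bases may differ.
Cyp2e1: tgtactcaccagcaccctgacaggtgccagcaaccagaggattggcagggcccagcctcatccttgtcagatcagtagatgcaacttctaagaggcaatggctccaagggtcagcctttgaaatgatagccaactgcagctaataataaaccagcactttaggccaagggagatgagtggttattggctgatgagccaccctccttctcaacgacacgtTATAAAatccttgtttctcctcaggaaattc

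The Cyp3a genes lie in a cluster on chromosome 5, where Cyp3a16, Cyp3a41b, Cyp3a41a, Cyp3a44, Cyp3a11 and Cyp3a25 follow each other on the minus strand. Cyp3a enzymes hydroxylate steroids and many drugs, and Cyp3a16, Cyp3a41a, Cyp3a41b and Cyp3a44 are known as female-biased in mouse liver. Cyp3a41a (ENSMUSG00000075551, chr5:145694049-145720136) and Cyp3a41b (ENSMUSG00000075552, chr5:145558664-145584730) are near copies: 98.6% and 93.5% of the 50-base words of their transcripts occur in other P450 genes, so how reads were divided between them is uncertain and their sum is the safer value. The sum was 606 ± 192 CPM in NUL (SD, n = 4), 1752 ± 559 in LAC (n = 3), 1527 ± 297 in ID2 (n = 3), 1900 ± 155 in ID4 (n = 4), 1024 ± 212 in ID6 (n = 6), 1287 ± 251 in ID8 (n = 3) and 722 ± 220 in REG (n = 4). Every LAC, ID2, ID4, ID6 and ID8 animal lay above the highest NUL animal (766 CPM), while REG (568 to 1049 CPM) overlapped NUL.

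Cyp3a41a itself had 430.5, 486.1, 239.3 and 337.5 CPM in NUL. It had 1377, 1544 and 792 in LAC, 805, 1233 and 1053 in ID2, and 1112, 1199, 1296 and 1287 in ID4. None of these 10 animals was as low as any NUL animal. Its log2 fold change over NUL was 1.73 ± 0.26 in LAC (edgeR adjusted p = 0.000173), 1.46 ± 0.26 in ID2 (0.00278) and 1.71 ± 0.25 in ID4 (0.000299), and all 3 calls were kept under every alternative. From ID4 to ID6 it fell by 0.95 ± 0.22 on the log2 scale (0.00917), to 479 to 814 CPM with a median of 633. ID8 (590, 978 and 838 CPM) did not overlap NUL but missed the threshold (log2 fold change 1.1 ± 0.26, adjusted p = 0.0576), and REG (363, 306, 372 and 613) overlapped it. Cyp3a41b had log2 fold changes over NUL of 1.14 ± 0.27, 1.09 ± 0.27 and 1.54 ± 0.26 in LAC, ID2 and ID4 (edgeR adjusted p = 0.00834, 0.029 and 0.00118), but LAC_240 (331 CPM) lay just below the highest NUL animal (336). The LAC call was lost without LAC_213 (0.0608) and with only the compared groups (0.156), and the ID2 call without any 1 of 4 animals (largest adjusted p 0.156), without the filter, with either covariate and with only the compared groups (0.0589 to 0.169). The ID4 call was kept under every alternative.

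The neighbours Cyp3a16 and Cyp3a44 followed another course. Cyp3a16 (ENSMUSG00000038656, chr5:145436309-145469723) had 280.8, 200.8, 186.7 and 228.9 CPM in NUL and 191, 248 and 155 in LAC, ranges that overlapped in part (log2 fold change -0.18 ± 0.19, adjusted p = 0.633). It then had 308, 335 and 366 CPM in ID2 and 453, 473, 538 and 506 in ID4, a rise over NUL of 1.13 ± 0.18 on the log2 scale at ID4 (edgeR adjusted p = 0.000555). ID2 was already above LAC, by 0.76 ± 0.21 (0.0131; lost without LAC_240 or ID2_224, largest adjusted p 0.0692, and with the clock score, 0.0698). Cyp3a44 (ENSMUSG00000054417, chr5:145773983-145805874) had 557, 542, 490 and 466 CPM in NUL, 520, 611 and 361 in LAC, and 692, 773, 802 and 849 in ID4, with a rise of 0.60 ± 0.12 at ID4 (0.00239). Both ID4 calls were kept under every alternative. From ID4 to ID6 Cyp3a16 fell by 0.92 ± 0.16 on the log2 scale (0.000982, kept under every alternative). Cyp3a41b fell by 0.79 ± 0.23 (0.0335), a call that was lost without any 1 of 7 of the 10 animals (largest adjusted p 0.0846), without the filter (0.0668) and once the title number entered the fit (0.0767). Cyp3a44 fell over the same step by 0.58 ± 0.11 (0.00119). In LAC_240 all 4 genes were the lowest of the 3 lactating animals.

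The different course in lactation can be put as a ratio within each animal, Cyp3a41a plus Cyp3a41b over Cyp3a16 plus Cyp3a44. It was 0.914, 1.01, 0.537 and 0.779 in NUL and 2.72, 2.55 and 2.18 in LAC, without overlap. The ratio was chosen after the values were seen, so it is a description with no test. Of the 50-base words of its transcript Cyp3a44 shares 26.5% with other P450 genes (most with Cyp3a41a), and Cyp3a16 shares 10.7%, so part of the reads could have been exchanged between the numerator and the denominator. It was 1.61 ± 0.191 in ID2 (SD, n = 3), 1.49 ± 0.0189 in ID4 (n = 4), 1.31 ± 0.192 in ID6 (n = 6), 1.5 ± 0.291 in ID8 (n = 3) and 1.02 ± 0.255 in REG (n = 4). All ID2, ID4 and ID8 animals lay above NUL, whereas REG (0.786, 0.890, 1.04 and 1.37) overlapped it.

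The 250 bases before the starts of these 4 genes are shown because they are almost the same while the lactation values are not. They lie at chr5:145720137-145720386 (Cyp3a41a), chr5:145584731-145584980 (Cyp3a41b), chr5:145469724-145469973 (Cyp3a16) and chr5:145805875-145806124 (Cyp3a44), all on the minus strand, and are printed 5′ to 3′ on it. Capitals in the last 3 mark bases that have no identical partner in Cyp3a41a when aligned. Identity to Cyp3a41a was 99.6% for Cyp3a41b (1 substitution), 94.4% for Cyp3a44 (14 substitutions, no gap) and 90.9% for Cyp3a16 (15 substitutions, 8 gap positions).
Cyp3a41a: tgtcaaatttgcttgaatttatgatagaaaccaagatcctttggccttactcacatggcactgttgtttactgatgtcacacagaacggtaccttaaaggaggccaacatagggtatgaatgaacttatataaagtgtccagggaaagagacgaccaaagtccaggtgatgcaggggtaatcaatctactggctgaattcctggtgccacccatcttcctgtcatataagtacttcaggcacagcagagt
Cyp3a41b: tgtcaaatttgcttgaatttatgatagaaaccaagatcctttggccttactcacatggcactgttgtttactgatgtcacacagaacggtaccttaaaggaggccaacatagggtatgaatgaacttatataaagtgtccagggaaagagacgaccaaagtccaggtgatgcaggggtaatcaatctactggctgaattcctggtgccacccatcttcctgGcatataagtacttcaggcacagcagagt
Cyp3a44: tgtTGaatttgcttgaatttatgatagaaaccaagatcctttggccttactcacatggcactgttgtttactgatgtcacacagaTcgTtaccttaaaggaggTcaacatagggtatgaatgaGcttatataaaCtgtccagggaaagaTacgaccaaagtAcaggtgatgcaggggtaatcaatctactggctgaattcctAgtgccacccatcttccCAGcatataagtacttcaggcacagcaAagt
Cyp3a16: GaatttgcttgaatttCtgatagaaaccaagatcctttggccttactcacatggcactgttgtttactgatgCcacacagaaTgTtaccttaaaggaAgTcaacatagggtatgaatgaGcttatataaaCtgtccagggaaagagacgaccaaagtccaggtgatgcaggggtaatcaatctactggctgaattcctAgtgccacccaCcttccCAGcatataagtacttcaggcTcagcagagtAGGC

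Cyp3a11, a textbook PXR target, is 72.1% identical to Cyp3a41a in that window and also rose in lactation. It had 661, 622, 790 and 589 CPM in NUL and 1041, 996 and 1235 in LAC, without overlap. The log2 fold change was 0.71 ± 0.19 (edgeR adjusted p = 0.0124), which was lost without LAC_240 (0.0711). It was called in no other comparison, and in ID4 it had 697, 671, 524 and 688 CPM, within or below the NUL range, where Cyp3a41b, Cyp3a16 and Cyp3a44 had their highest stage means.

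**Figure D4:**
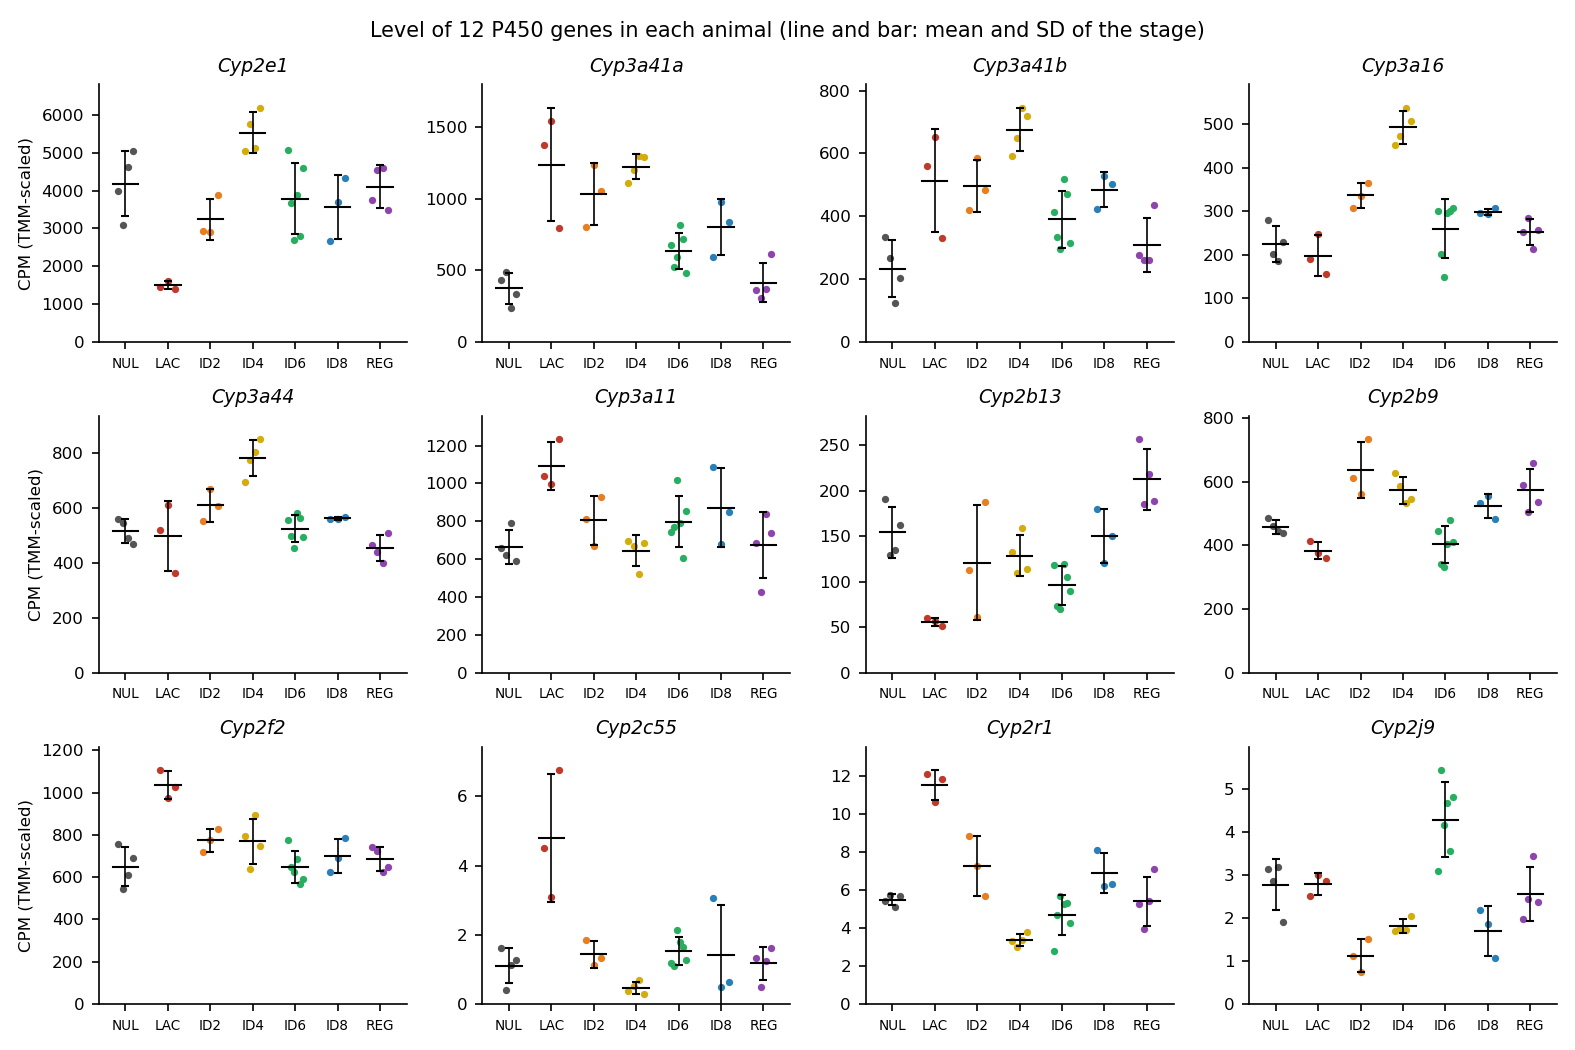
CPM of 12 P450 genes in each animal (points) by stage, with the mean (line) and SD (bar, stopping at 0 for Cyp2c55 in ID8). LAC animals stand apart as low for Cyp2e1 and Cyp2b13 and high for Cyp2f2 and Cyp2r1, ID4 animals as high for Cyp3a16 and Cyp3a44, and most ID6 animals as high for Cyp2j9.

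Cyp2b9 and Cyp2b13 are female-biased testosterone hydroxylases, and Cyp2b10 is the usual CAR target. Cyp2b13 (ENSMUSG00000040583, chr7:26061497-26096197, plus strand) had 190, 130, 135 and 162 CPM in NUL and 59.7, 56.9 and 51.5 in LAC, a fall by 1.46 ± 0.27 on the log2 scale without overlap (edgeR adjusted p = 0.00129, kept under every alternative). It had 113, 61.8 and 187 CPM in ID2, where the 3 animals spread more than in any other stage, and 256.6, 185.1, 218.4 and 188.6 in REG. ID2 against LAC was called (log2 fold change 1.11 ± 0.28, adjusted p = 0.0107), but not without ID2_224 (0.105) or with only the compared groups (0.197). Cyp2b9 (ENSMUSG00000040660, chr7:26173411-26210661, plus strand) had 487, 462, 445 and 439 CPM in NUL and 413, 377 and 361 in LAC (log2 fold change -0.26 ± 0.12, adjusted p = 0.174). It had 611, 563 and 734 CPM in ID2, a rise over LAC by 0.73 ± 0.12 on the log2 scale (0.000294, kept under every alternative). It also rose over NUL, by 0.47 ± 0.12 (0.0203). This call was lost without any 1 of 3 animals (largest adjusted p 0.144), with the title number (0.0988) or clock score (0.146) as a covariate, and with limma (0.0758). After 627, 585, 534 and 545 CPM in ID4, it had 333 to 481 in ID6 (median 408), 533, 555 and 483 in ID8, and 590, 506, 659 and 536 in REG. From ID4 to ID6 it fell by 0.51 ± 0.10 (0.00185), and the step from ID6 to ID8 was 0.38 ± 0.11 (0.0403), lost without any 1 of 6 of the 9 animals (largest adjusted p 0.169) and under every other alternative except RLE factors and DESeq2 (0.0507 to 0.238). Cyp2b10 had 108, 61.3, 55.2 and 56.9 CPM in NUL and 125, 119 and 103 in LAC. It was called in none of the 10 comparisons although it differed among the 7 stages (joint adjusted p = 0.00111).

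Within each animal the ratio of Cyp2b13 to Cyp2b9 was 0.390, 0.281, 0.303 and 0.370 in NUL and 0.144, 0.151 and 0.143 in LAC, again without overlap; this ratio too was chosen after the values were seen and is given with no test. It was 0.184 ± 0.0725 in ID2 (SD, n = 3), 0.226 ± 0.0496 in ID4 (n = 4), 0.237 ± 0.0341 in ID6 (n = 6), 0.288 ± 0.0641 in ID8 (n = 3) and 0.371 ± 0.0451 in REG (n = 4). The stage means thus stood in the order of the stages from LAC to REG, which was not tested as a trend. Of the 50-base words of the transcripts, 20.0% (Cyp2b13) and 10.8% (Cyp2b9) occur in another P450 gene, so part of the reads could be exchanged between them.

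**Figure D5:**
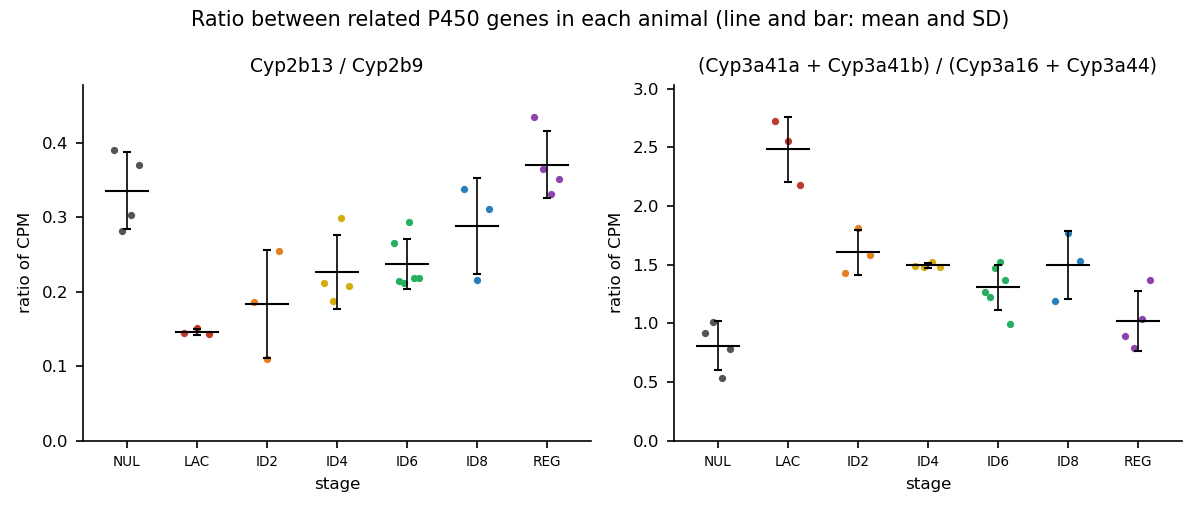
Ratio of CPM between related P450 genes in each animal (points) by stage, with the mean (line) and SD (bar): Cyp2b13 over Cyp2b9, and Cyp3a41a plus Cyp3a41b over Cyp3a16 plus Cyp3a44. The 3 LAC animals lie below all NUL animals in the first (0.143 to 0.151 against 0.281 to 0.390) and above them in the second (2.18 to 2.72 against 0.537 to 1.01).

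The windows before both genes (chr7:26173159-26173408 for Cyp2b9 and chr7:26061245-26061494 for Cyp2b13, plus strand) are printed because 248 of their 250 bases are identical. Capitals in Cyp2b13 mark the differences, T48C and C104T, with the Cyp2b9 base first and positions counted from 1 at the 5′ end. Cyp2b10, by contrast, was 70.0% identical to Cyp2b9 here.
Cyp2b9: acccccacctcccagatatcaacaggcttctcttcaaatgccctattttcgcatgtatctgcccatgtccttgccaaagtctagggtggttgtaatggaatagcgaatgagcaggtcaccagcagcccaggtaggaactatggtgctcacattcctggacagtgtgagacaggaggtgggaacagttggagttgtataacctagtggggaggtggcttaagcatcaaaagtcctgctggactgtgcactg
Cyp2b13: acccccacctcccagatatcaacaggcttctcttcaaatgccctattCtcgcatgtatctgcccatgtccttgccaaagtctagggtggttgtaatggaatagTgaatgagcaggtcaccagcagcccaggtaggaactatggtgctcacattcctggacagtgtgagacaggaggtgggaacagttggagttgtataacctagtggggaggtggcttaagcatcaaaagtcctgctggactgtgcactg

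Cyp2c was the most abundant subfamily, and 9 of its 13 tested genes differed among the stages, where 27% of all genes did. Cyp2c29, a CAR and PXR target and the highest of them, had 2306, 1198, 1408 and 1644 CPM in NUL, 2083, 2047 and 2181 in LAC and 1349, 1631 and 1537 in ID2. It had 1312, 1613, 1815 and 1433 in ID4, 1330 to 1983 (median 1541) in ID6, 1444, 1116 and 1125 in ID8 and 1612, 1709, 1466 and 1265 in REG. LAC and ID2 did not overlap, yet it was called in none of the 10 comparisons (ID2 against LAC, adjusted p = 0.0617). Cyp2c55, also a CAR and PXR target, had the largest rise of the family in lactation but from a very low level: 1.63, 0.412, 1.13 and 1.26 CPM in NUL and 4.50, 3.09 and 6.77 in LAC. Its log2 fold change was 2.11 ± 0.49 (edgeR adjusted p = 0.00686, kept under every alternative). It fell by 1.74 ± 0.54 from LAC to ID2 (0.0297; lost without any 1 of 4 of the 6 animals, without the filter, and with the title number, largest adjusted p 0.131) and rose by 1.69 ± 0.47 from ID4 to ID6 (0.0257; lost without any 1 of 3 of the 10, without the filter, and with the title number, largest adjusted p 0.0924).

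Cyp2c69 and Cyp2c40, listed as female-biased, share 54.3% and 60.3% of their 50-base words with other P450 genes, and no library gave either gene a whole count. Cyp2c69 had 617, 510, 732 and 677 CPM in NUL and 1417, 1550 and 866 in LAC, a log2 fold change of 1.01 ± 0.24 (edgeR adjusted p = 0.0085; 0.0583 without LAC_213). It fell by 0.83 ± 0.26 from LAC to ID2 (0.0345; lost without any 1 of 5 of the 6 animals, without the filter, with limma and with either covariate, largest adjusted p 0.296). Cyp2c40 fell by 0.59 ± 0.14 over the same step (0.00498; 0.0603 with the title number as a covariate), from 1729, 1809 and 1588 CPM to 1238, 1098 and 1059. Cyp2c70, known for making muricholic acid in mice, fell by 0.62 ± 0.18 (0.0205; lost without any 1 of 3 animals and with either covariate, largest adjusted p 0.16).

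Cyp2c38 was lowest at ID2. It had 122, 111, 115 and 131 CPM in NUL, 126, 144 and 131 in LAC, 80.7, 56.0 and 93.7 in ID2, and 151, 119, 133 and 138 in ID4. It had 118 to 189 (median 151) in ID6, 122, 140 and 144 in ID8 and 136, 123.4, 153 and 116 in REG. ID2 overlapped none of the other stages. It fell from LAC to ID2 by 0.80 ± 0.15 on the log2 scale (edgeR adjusted p = 0.000743, kept under every alternative) and rose from ID2 to ID4 by 0.82 ± 0.14 (0.00167; lost with the clock score as a covariate, 0.0644). Against NUL the fall at ID2 was 0.64 ± 0.14 (0.00994), which was lost without ID2_39 (0.129), the library with the highest clock score, with the clock score (0.367) or title number (0.148) as a covariate, and with only the compared groups (0.0627). Cyp2c39 rose by 0.45 ± 0.10 from ID2 to ID4 (0.0137; lost without ID2_31 or ID2_39 and with the clock score, largest adjusted p 0.183). It stood above NUL in ID4, by 0.42 ± 0.09 (0.00589), and fell by 0.36 ± 0.08 from ID4 to ID6 (0.00649).

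In Cyp2d, whose human relative handles many drugs, Cyp2d26 had the highest level. It had 871, 777, 831 and 819 CPM in NUL, 633, 638 and 623 in LAC, 806, 930 and 1038 in ID2 and 1250, 1177, 1240 and 1254 in ID4. The NUL, LAC and ID4 animals formed 3 ranges that did not overlap. The fall in lactation was 0.39 ± 0.12 on the log2 scale (edgeR adjusted p = 0.0364), and it was lost without any 1 of 6 of the 7 animals (largest adjusted p 0.101) and with the clock score (0.0511). The rise at ID4 over NUL was 0.58 ± 0.11 (0.00221) and the fall from ID4 to ID6 0.62 ± 0.10 (0.000441), both kept under every alternative. Cyp2d26 also rose from LAC to ID2, by 0.55 ± 0.13 (0.00444). ID6 had 638 to 995 CPM with a median of 791, ID8 had 560, 813 and 755, and REG had 811, 723, 717 and 789.

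Cyp2d9, a male-biased steroid hydroxylase, was lower than in NUL in the first days after weaning. It had 96.4, 82.1, 112 and 154 CPM in NUL, 83.4, 80.9 and 84.0 in LAC, 46.5, 37.7 and 59.4 in ID2 and 74.9, 63.4, 77.2 and 72.6 in ID4. All ID2 and ID4 animals lay below all NUL animals. The log2 fold change against NUL was a fall by 1.21 ± 0.18 at ID2 (edgeR adjusted p = 0.000518, lost with only these 2 groups in the fit, at 0.0703), and ID2 also fell against LAC, by 0.79 ± 0.19 (0.00684; 0.0783 with the title number as a covariate). At ID4 it was a fall by 0.62 ± 0.16 (0.0299, lost without any 1 of 5 of the 8 animals, without the filter, with the title number and with only the compared groups, largest adjusted p 0.182). Cyp2d40, with 23.3, 34.4, 28.9 and 23.1 CPM in NUL, had 40.4, 44.0 and 33.5 in LAC (log2 fold change 0.52 ± 0.16, adjusted p = 0.0289; lost without any 1 of 4 animals, without the filter, with only the compared groups and with limma, largest adjusted p 0.151). It was also above NUL in ID4, by 0.56 ± 0.15 (0.0262), and fell by 0.61 ± 0.13 from ID4 to ID6 (0.00456).

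Cyp2f2, which bioactivates naphthalene, rose in lactation while Cyp2e1 fell. It had 759, 543, 609 and 690 CPM in NUL and 1108, 974 and 1027 in LAC, without overlap (log2 fold change 0.67 ± 0.12, edgeR adjusted p = 0.000553, kept under every alternative). By ID2 it had 720, 776 and 827 CPM, a fall from LAC by 0.42 ± 0.13 (0.0273; lost without any 1 of 4 animals and with either covariate, largest adjusted p 0.231), and then 796, 640, 894 and 749 in ID4. It had 567 to 778 (median 637) in ID6, 626, 691 and 785 in ID8 and 744, 722, 625.3 and 647 in REG, all overlapping NUL. Of their 50-base words, Cyp2f2 shares 0% and Cyp2e1 0.3% with other P450 genes.

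Cyp2r1, the vitamin D 25-hydroxylase, had the smallest joint p of the family (adjusted p = 1.87e-06). It had 5.41, 5.75, 5.11 and 5.65 CPM in NUL and 12.1, 10.6 and 11.8 in LAC, a log2 fold change of 1.07 ± 0.19 (edgeR adjusted p = 0.000383, kept under every alternative). It then had 8.85, 7.26 and 5.69 CPM in ID2 and 3.30, 2.99, 3.38 and 3.77 in ID4. From above all NUL animals in lactation it had thus gone below all of them 4 days after weaning. The fall from ID2 to ID4 was 1.11 ± 0.19 on the log2 scale (0.00123, kept under every alternative), that from LAC to ID2 0.66 ± 0.20 (0.0237; lost without any 1 of 4 animals and with either covariate, largest adjusted p 0.135) and that of ID4 against NUL 0.70 ± 0.18 (0.0201; lost without any 1 of 4 animals, largest adjusted p 0.0633). In ID6 it had 2.78 to 5.69 CPM (median 4.97), in ID8 8.09, 6.22 and 6.32, and in REG 5.23, 3.94, 5.39 and 7.07.

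Cyp2u1, a fatty acid hydroxylase, lay below NUL in every LAC, ID2, ID4 and ID8 animal. It had 12.0, 9.64, 8.60 and 8.22 CPM in NUL, 5.58, 4.30 and 6.32 in LAC, 5.84, 4.87 and 6.04 in ID2 and 6.69, 7.60, 4.20 and 4.96 in ID4, and 4.10, 6.27 and 5.30 in ID8, the stage of lowest mean. The falls were 0.83 ± 0.22 in LAC (edgeR adjusted p = 0.0119; 0.0874 without LAC_213), 0.78 ± 0.22 in ID2 (0.0427) and 0.72 ± 0.20 in ID4 (0.0348). The last 2 were lost without any 1 of 6 and 5 animals, with largest adjusted p 0.207 and 0.119, and both with the clock score (0.336 and 0.0601) and limma (0.092 and 0.106). The ID2 call was also lost without the filter (0.0621) and with the title number (0.067), and the ID4 call with only the compared groups (0.0501). ID8 missed the threshold (log2 fold change -0.88 ± 0.22, adjusted p = 0.0613), while ID6 (6.34 to 9.73 CPM, median 8.44) and REG (7.71, 12.9, 8.01 and 7.07) overlapped NUL. Cyp2u1 shares no words with other P450 genes, yet its counts were fractional in 18 libraries, so part of its reads was divided between genes by the counting.

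Cyp2j9, an arachidonic acid epoxygenase at a low level, had 3.13, 2.87, 3.18 and 1.90 CPM in NUL, 2.50, 2.99 and 2.86 in LAC, 1.12, 0.749 and 1.51 in ID2, and 3.08 to 5.44 (median 4.41) in ID6. In ID4 it had 1.69, 1.77, 1.73 and 2.05, in ID8 2.17, 1.85 and 1.06, and in REG 1.97, 2.44, 3.44 and 2.37. ID2 lay below and ID6 mostly above the NUL animals. It fell from LAC to ID2 by 1.3 ± 0.27 on the log2 scale (edgeR adjusted p = 0.00147) and rose from ID4 to ID6 by 1.24 ± 0.21 (0.000625), and both calls were kept under every alternative. It fell again from ID6 to ID8 by 1.32 ± 0.23 (0.00253; lost with the title number as a covariate, at 0.175), and the fall at ID2 against NUL was 1.29 ± 0.25 (0.00392), lost without ID2_39 (0.0504) and with the clock score (0.255) or title number (0.0808) as a covariate. Cyp2j5 was far more abundant, with 500, 532, 457 and 505 CPM in NUL, 458, 476 and 391.8 in LAC, 449, 383 and 446 in ID2 and 541, 445, 511 and 521 in ID4. It had 323 to 503 (median 454) in ID6, 518, 518 and 550 in ID8 and 502, 439, 566 and 560 in REG, and was not called among the stages (joint adjusted p = 0.102). Cyp2j6 fell by 0.41 ± 0.11 from ID4 to ID6 (0.0231).

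Cyp2g1, best known from olfactory mucosa, had 15.9, 7.18, 9.35 and 9.88 CPM in NUL, 13.4, 10.4 and 9.47 in LAC and 27.4, 21.4 and 18.6 in ID2. It had 14.5, 16.2, 16.8 and 21.6 in ID4, 6.92 to 18.6 (median 13.3) in ID6, 18.4, 15.2 and 16.0 in ID8 and 16.2, 18.1, 19.3 and 22.3 in REG. All ID2 animals lay above NUL, with a log2 fold change of 1.09 ± 0.27 (edgeR adjusted p = 0.0263) that was lost without any 1 of 5 of the 7 animals (largest adjusted p 0.131), without the filter, with only the compared groups and with either covariate (0.0546 to 0.267). Over LAC the rise at ID2 was 1.02 ± 0.29 (0.0192; lost without any 1 of 3 animals and with either covariate, largest adjusted p 0.0908). 

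In Cyp2a, Cyp2a12 had 624, 556, 555 and 603 CPM in NUL, 727, 707 and 654 in LAC, 677, 768 and 728 in ID2 and 749, 748, 818 and 774 in ID4, where it was called against NUL (log2 fold change 0.40 ± 0.09, adjusted p = 0.00951). It had 501 to 696 (median 572) in ID6, 594, 597 and 692 in ID8 and 648, 577, 590 and 631 in REG, and it fell by 0.42 ± 0.08 from ID4 to ID6 (0.00254). Cyp1a2, the abundant AHR target, had 340, 176, 240 and 292 CPM in NUL, 300, 288 and 287 in LAC, 275, 272 and 309 in ID2 and 191, 284, 240 and 213.4 in ID4. It had 134 to 277 (median 195) in ID6, 170, 138 and 194 in ID8 and 217.6, 224.3, 212.9 and 233.6 in REG. It differed among the stages (joint adjusted p = 0.0232) but in no pair tested (ID8 against NUL, log2 fold change -0.64 ± 0.20, adjusted p = 0.156). Cyp1b1 had at most 1.20 CPM in any animal and Cyp2s1 at most 1.08, and neither was called (joint adjusted p = 0.203 and 0.170).

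By regulation as known from textbooks, the 8 female-biased genes (Cyp2b9, Cyp2b13, Cyp2c40, Cyp2c69, Cyp3a16, Cyp3a41a, Cyp3a41b and Cyp3a44) all differed among the stages. Of the 46 tested P450 genes 30 did, and of all genes 27%. In LAC against NUL 3 rose and 1 fell, in ID2 against NUL 3 rose, in ID4 against NUL 4 rose, in ID2 against LAC 3 rose and 2 fell, and in ID6 against ID4 5 fell. The near copies Cyp3a41a and Cyp3a41b, between which reads are not safely divided, count as 2 genes here. Both are among the calls in LAC, ID2 and ID4 against NUL and in ID6 against ID4. Of all genes, 5.19%, 2.32%, 2.64% and 8.48% rose in the first 4 of these comparisons, 6.00% and 7.64% fell in LAC against NUL and ID2 against LAC, and 4.64% fell in ID6 against ID4. Their median log2 fold change was 0.14, 0.36, 0.68, 0.12 and -0.54, beside -0.01, -0.02, -0.02, 0.02 and 0.01 over all genes. In ID8 against ID6 1 rose, Cyp2b9 (all genes, 2.37%), and the median was 0.26, beside 0.0. Summed, they had 3657 to 4234 CPM in NUL, 4506 to 6848 in LAC, 4849 to 5234 in ID2, 5851 to 6932 in ID4, 3832 to 5214 in ID6, 4704 to 5787 in ID8 and 3786 to 4464 in REG. The LAC, ID2, ID4 and ID8 animals all lay above NUL, and ID6 and REG overlapped it. Of the 8 CAR and PXR targets (Cyp2b10, Cyp2c29, Cyp2c37, Cyp2c50, Cyp2c54, Cyp2c55, Cyp3a11 and Cyp3a13), 5 differed among the stages, where 27% of all genes did. In lactation 2 rose, Cyp2c55 and Cyp3a11 (all genes, 5.19%). Cyp2c55 alone was called in ID2 against LAC, where it fell (7.64%), and in ID6 against ID4, where it rose (3.89%). None was called against NUL after weaning, where at most 2.64% of all genes were called in 1 direction. Of the 3 AHR targets (Cyp1a1, Cyp1a2 and Cyp1b1) 1 differed among the stages, Cyp1a2. None was called in any of the 10 comparisons, where at most 8.48% of all genes were called in 1 direction. Their medians lay between -0.48 in ID8 against NUL and 0.16 in LAC against NUL.

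Among 13 transcriptional regulators of P450 genes, 4 differed among the stages, near the 27% of all genes. In lactation 1 fell, the glucocorticoid receptor gene Nr3c1 (log2 fold change -0.31 ± 0.10, edgeR adjusted p = 0.0359), where 6.00% of all genes fell, and none was called against NUL after weaning. In ID2 against LAC 2 rose, Nr3c1 and Rxra (all genes, 8.48%), in ID6 against ID4 1 fell, Rxra (4.64%), and in ID8 against ID6 1 rose, Cebpa (2.37%). The PXR gene Nr1i2 had 55.9 ± 5.82 CPM in the 4 NUL animals (mean ± SD) and 47.4 ± 6.39 in the 3 LAC animals, and the CAR gene Nr1i3 had 135 ± 22.4 and 98.5 ± 9.93, neither called among the stages (joint adjusted p = 0.145 and 0.430). Of 9 genes of the growth hormone and sex axis, 5 differed among the stages; 2 fell in lactation (all genes, 6.00%), 3 rose from LAC to ID2 (8.48%) and 2 rose in ID4 against NUL (2.64%). The signal transducers Stat5a and Stat5b fell in lactation, by 0.79 ± 0.14 and 0.40 ± 0.11 on the log2 scale (0.000419 and 0.0169). In ID2 against LAC the receptors Ghr and Prlr rose, by 0.63 ± 0.12 and 0.48 ± 0.11 (0.00074 and 0.00335), and so did Stat5b, by 0.49 ± 0.12 (0.00495). Against NUL, Prlr rose by 0.45 ± 0.10 and Stat5a fell by 0.51 ± 0.14 in ID2 (0.0101 and 0.0362), and in ID4 Prlr and Stat5b rose by 0.37 ± 0.09 and 0.36 ± 0.10 (0.0212 and 0.0363).

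All 6 genes of electron supply and heme differed among the stages, where 27% of all genes did. In LAC against NUL 3 rose (all genes, 5.19%), in ID4 against NUL 1 fell (1.61%) and in ID2 against LAC 1 rose and 2 fell (8.48% and 7.64%). In ID4 against ID2 1 fell (0.840%), and in ID6 against ID4 2 rose and 3 fell (3.89% and 4.64%). In lactation Cyb5b, the cytochrome b5 of the outer mitochondrial membrane, rose from 402 ± 41 to 674 ± 26.6 CPM (edgeR adjusted p = 7.69e-05), and the reductase gene Cyb5r3 from 355 ± 40.8 to 613 ± 39.2 (0.000671; SD, n = 4 and 3). Pgrmc1 rose by 0.27 ± 0.08 on the log2 scale (0.0241). Cyb5a, the microsomal cytochrome b5, was lower in every LAC animal than in NUL, at 494 ± 39.3 against 613 ± 40.4 CPM, but was not called (log2 fold change -0.31 ± 0.11, adjusted p = 0.0736). It rose from LAC to ID2 by 0.41 ± 0.12 (0.0183). Por, the reductase that serves the microsomal P450 enzymes, was not called in LAC, at 233 ± 37.4 CPM against 190 ± 26.5, and fell from ID4 to ID6 by 0.62 ± 0.12 (0.00193). Over that step Cyb5a and Pgrmc1 fell too, by 0.36 ± 0.09 and 0.22 ± 0.07 (0.0156 and 0.0346), whereas Cyb5b and Cyb5r3 rose, by 0.63 ± 0.10 and 0.41 ± 0.12 (0.000323 and 0.0391). Cyb5b had also fallen below NUL in ID4, by 0.67 ± 0.11 (0.000367). Of the 4 clock output factors 2 rose in ID2 against NUL (all genes, 2.32%). Dbp went from 1.68 ± 1.15 CPM in NUL to 23.4 ± 16.9 in ID2 (n = 4 and 3, edgeR adjusted p = 0.0149) and Tef from 25.3 ± 2.45 to 61.2 ± 17.5 (0.00263). In ID4 against NUL 1 factor rose (2.64%), and in ID2 against LAC 2 did (8.48%). From ID4 to ID6 1 factor fell (4.64%), and from ID6 to ID8 2 rose (2.37%). The part of these factors in the P450 values of ID2 was not tested. With the clock score as a covariate 2 of the 8 P450 calls in ID2 against NUL were made, those of Cyp3a41a and Cyp2d9. Among the 6 calls lost, the log2 fold change with the covariate was 1.46 for Cyp3a41b, 1.08 for Cyp2g1 and 0.55 for Cyp2b9. It was -0.73 for Cyp2u1, -0.89 for Cyp2j9 and -0.40 for Cyp2c38. The scores of NUL and ID2 did not overlap, so these values cannot tell the stage and the clock score apart. The title number as a covariate left 2 calls, and without ID2_31, the library with the most pancreas RNA, 6 were made.

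Whole liver was sequenced, so fewer cells of a type and less RNA per cell cannot be told apart. In LAC against NUL the summed hepatocyte markers went from 90530 to 117731 CPM up to 176999 to 221308 CPM, with 1 of 5 genes called higher (all genes, 5.19%). There 4 of 5 Kupffer cell markers were lower (301 to 385 CPM summed in NUL, 198 to 283 in LAC), as were 3 of 5 stellate and 2 of 5 bile duct markers. Of all genes 6.00% were lower. Against NUL, 4 of 5 Kupffer markers were higher in ID4 (522 to 582 CPM) and 3 of 5 in ID6 (406 to 673 CPM), where 2.64% and 0.402% of all genes were. In ID6 and ID8 all 4 erythroid genes were lower than in NUL (50.6 to 258 and 16.6 to 31 CPM, against 329 to 701), where 0.682% and 0.140% of all genes were. The part of these shifts in the P450 values was not tested.

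In the 250 bases before the start, 48 P450 genes have a single RefSeq window. The letters TATAAA, read on both strands, occurred in 24 of them (50%), against 12.4% of 32851 windows of all genes, and the nuclear receptor half-site AGGTCA in 13 (27.1%), against 14.0%. The HNF1 half-site GTTAAT was found in 5 (10.4% against 6.43%), among them Cyp2c40 and Cyp2c69, and the STAT element TTCNNNGAA in 2 (4.17% against 7.02%), Cyp2j11 and Cyp2j12, which were not expressed enough to be tested. These matches describe letters only: a window without a match says nothing of the factor, which may bind elsewhere.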

How the data were processed

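Each of 27 liver libraries came with a table of expected counts and TPM per gene, deposited by the authors. STAR 2.6.1a, RSEM 1.3.1 and the builds mm10 and GRCm38 are named per the submitters' processing notes; the annotation release and the use of strand are not given in the sources used here. The deposited expected counts need not be whole, since RSEM divides reads that fit several genes; they were rounded. The deposited TPM values, which the authors scaled by transcript length, were used to compare levels between genes.

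Counts were tested with edgeR 4.0.16 (R 4.3.3): TMM scaling, filterByExpr by stage, and a robust quasi-likelihood fit over all 27 libraries and 7 stages, with Benjamini-Hochberg adjustment over 16428 genes. CPM values are TMM-scaled, and SE is that of the log2 fold change. P-values measure the spread between these animals. Positions are those of GENCODE M21 on GRCm38, which held 51633 of the 51826 identifiers, and promoter windows are those of RefSeq on GRCm38.p6, which matched 51 of 59 genes. The scripts were tested on simulated data.

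Values in every animal (the range and median of ID6) are given for the gene of highest TPM and the called gene of smallest joint p in each subfamily, except Cyp1b1 and Cyp2s1, near 0 throughout. Each comparison names up to 5 genes that rose and 5 that fell (10 each for LAC against NUL and ID2 against LAC), by size of change. Further values and calls of other comparisons or genes, and the ratios, were added after the data were seen; the alternatives were not run singly for those calls. Members and lists were chosen with earlier results of these data known. Alternatives were RLE factors, no filter, limma 3.58.1 on log2(TPM + 1), DESeq2 1.42.0, only the compared groups, covariates (a clock score; title numbers under 200, held by 7 animals, whose meaning is not given in the sources used here), and leaving out each animal.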

Additional observations from a re-analysis of the deposited data

Results flagged for a closer look

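Cyp2u1 in REG_214 stood apart from its group, at 12.9 CPM against 7.07 to 8.01 CPM in the other REG animals. Its gap to the nearest animal, divided by the range of the group, was 0.84. Dixon's criterion at the 0.05 level was applied to 64 groups of 4 or 6 animals, and this was the 1 group that met it. Chance alone would mark a few.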

How the results depend on the processing

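The number of called P450 genes moved by more than 1.5 times in these cases, and the cause was not tested. DESeq2 called 18 instead of 11 in ID4 against NUL, 3, 4 and 1 instead of 0 in ID6, ID8 and REG against NUL, 9 instead of 4 in ID4 against ID2, and 5 instead of 2 in ID8 against ID6. With limma on log2(TPM + 1), ID6 against NUL gave 1 and ID8 against ID6 gave 4. Without the filter, ID2 against NUL gave 5 instead of 8, and ID8 against ID6 gave 1. The title number as a covariate gave 2 in ID2 against NUL, 7 instead of 15 in ID2 against LAC and 0 in ID8 against ID6. The clock score gave 2 in ID2 against NUL, 1 in ID8 against NUL and 1 in ID4 against ID2. With only the compared groups, ID4 against ID2 gave 8 and ID8 against ID6 gave 1. Leaving out 1 animal at a time gave 7 to 13 in LAC against NUL, 3 to 10 in ID2 against NUL, 0 to 1 in ID6 and in ID8 against NUL, 9 to 13 in ID2 against LAC, 2 to 4 in ID4 against ID2 and 1 to 4 in ID8 against ID6. None of the 56 named calls reversed: 23 were kept under all alternatives, and 20 were lost with the title number, 18 with the clock score, 11 without the filter, 10 with only the compared groups, 6 with limma, and 0 with RLE factors or DESeq2. No paired analysis was possible because no replicate number is shared between the groups compared. Groups of 3 or 4 animals limit the small changes, and genes under 1 CPM rest on few counts.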
